A study of Mus musculus with 36 samples.

Results

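Microglia that lacked surface CD11c were compared between 2 genotypes in 2 brain regions, to ask whether the genotype acted differently in hippocampus than in cortex. The members were the 23 of 36 libraries whose titles give the CD11c-negative gate. They were summed by genotype, animal and region as the titles name them, which left 16 replicates, 4 in each of 4 groups. The groups were WT cortex, WT hippocampus, APP cortex and APP hippocampus. All mice were males of 6 months. APP mice carried APPswe/PSEN1dE9 (APP/PS1), a pair of transgenes for mutant human amyloid precursor protein and presenilin 1, and WT mice were the controls. In this line the transgenes are driven by a prion protein promoter, which is active in neurons and other brain cells. Cells were freed mechanically in the cold and sorted as living nucleated cells with high CD11b and intermediate CD45, and Smart-seq2-based libraries were made from single wells. Cortex and hippocampus of the same title name came from the same animal, whereas WT 1 and APP 1 are different animals.

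Microglia are the resident macrophages of the brain. In the undisturbed state they carry receptors such as P2ry12 and Cx3cr1 and the surface protein Tmem119, and they make complement C1q and lysosomal cathepsins. Around amyloid plaques a share of microglia takes on Itgax, which encodes CD11c, together with Apoe and Lpl. The CD11c-negative gate therefore holds the cells that have not taken on this marker.

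The quantity described is the interaction, the APP minus WT difference in hippocampus minus the APP minus WT difference in cortex, in log2 units. A value below 0 means that the genotype difference was lower in hippocampus than in cortex. Levels are counts scaled to a common library total with TMM factors (CPM), given as mean ± SD of the 4 replicates in a group. Each interaction is a log2 value ± SE, tested with edgeR's quasi-likelihood method, and p was adjusted by Benjamini and Hochberg's procedure over 14892 genes. A gene is called when its adjusted p is under 0.05.

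The 4 groups held 390 WT cortex, 454 APP cortex, 438 WT hippocampus and 426 APP hippocampus cells, with a median of 19036.5 counts per cell over all 1708 cells. Summed replicates held 1037425 to 4406184 counts. Libraries shared 59 to 79 of 83 well barcodes. None of the 630 pairs of libraries was identical. A number that follows the gate in each title, possibly a plate or library set, never occurs in more than 1 of the 4 groups, so it cannot be told apart from genotype and region. For 10 of these 23 libraries a second label gives another genotype than the title, and the titles were followed. Itgax was at 0 counts in WT cortex and at 6, 13 and 58 counts in APP cortex, WT hippocampus and APP hippocampus. App was at 142 ± 73.8 CPM in WT cortex and 124 ± 140 CPM in APP cortex. In hippocampus App was at 46.7 ± 62.4 CPM in WT and 88.7 ± 18.3 CPM in APP mice. Prnp, whose promoter the transgenes use, was at 14.0, 75.8, 35.1 and 79.2 CPM in WT cortex and at 140, 107, 144 and 234 CPM in APP cortex, so these 2 groups did not overlap. In hippocampus Prnp was at 1.69, 0, 0 and 0 CPM in WT and 15.5, 0, 24.9 and 86.7 CPM in APP mice, which overlap at 0. There edgeR's quasi-likelihood test called Prnp higher in APP mice (adjusted p = 0.00705), on 6 WT and 262 APP counts. The same test did not call Prnp in cortex (adjusted p = 0.708). Its interaction, 4.18 ± 1.43, was not called either (adjusted p = 0.171). Prnp is also among the neuron markers summed next. Neuron markers summed to 696 to 2812 CPM in WT cortex and 954 to 2206 CPM in APP cortex, against 21.4 to 184 CPM in WT hippocampus and 129 to 257 CPM in APP hippocampus. Neutrophil markers were at or near 0 in every replicate, at most 0.305 CPM. Fewer cells of a type and less RNA per cell cannot be told apart in such sums.

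A set of 119 genes, among them Dpysl2, Kmt2d, Notch2 and Alkbh5, had an interaction below 0, and most of them were highest in WT hippocampus and lowest in APP hippocampus. The microglial identity genes Tmem119, P2ry12 and Cx3cr1 were not called. In all 150 of 14892 genes were called (1.01%), 119 below 0 (0.799%) and 31 above 0 (0.208%). Without adjustment 1944 genes had p under 0.05, and the median interaction over all genes tested was 0.18. The 119 genes had a median interaction of -1.40. Each animal's hippocampus minus cortex difference was lower in all 4 APP mice than in all 4 WT mice for 115 of the 119, a separation found in 2.3% of all genes tested. For the 31 the reverse held in 19, beside 1.77% of all genes. APP hippocampus was the lowest group for 115 of the 119 and WT hippocampus the highest for 105. Fitted with the animal as a block, a paired analysis, the interaction called 90 genes, 88 below and 2 above 0. Without cells in which neural markers held at least 1% of the counts it called 135 of 13216 genes, 110 of them below 0, which held 106 of the 119. The call rests on the titles: with the second genotype label in their place edgeR called 0 of 18954 genes. There 1556 genes had an unadjusted p under 0.05, and 98 of the 119 kept their sign. That fit regrouped all 36 libraries, and the label differs for 17 of them, 10 of which are CD11c-negative. DESeq2 on the titles called 798 genes, 475 above and 323 below 0, so the split between the directions depended on the tool.

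The gene with the smallest p was Dpysl2 (chromosome 14, 66802864 to 66868688, GRCm38), which encodes a protein that binds tubulin and guides microtubule assembly. Its level was 5786, 4745, 4834 and 4849 CPM in WT cortex and 7366, 7111, 7981 and 6837 CPM in WT hippocampus of animals 1 to 4. In APP mice it was 6571, 6613, 5014 and 6946 CPM in cortex and 3643, 3558, 3747 and 4112 CPM in hippocampus. Every WT mouse was higher in hippocampus and every APP mouse was lower there, and the 4 APP hippocampus values lay under all 12 others. The interaction was -1.27 ± 0.15 (adjusted p = 0.00022). Other called genes of the cytoskeleton are given here with their levels. Tubb5, a beta-tubulin, was called at -1.18 ± 0.19, with 2104 ± 281 CPM in APP hippocampus against 4088 ± 398 CPM in WT hippocampus. Tacc1, a centrosomal and microtubule-associated protein, was at 3065 ± 403, 3511 ± 303, 4660 ± 828 and 2066 ± 222 CPM in WT cortex, APP cortex, WT hippocampus and APP hippocampus. Actr2, a subunit of the Arp2/3 complex that branches actin filaments, was called at -1.27 ± 0.24. Actb, cytoplasmic beta-actin, was not called at -0.70 ± 0.19 (adjusted p = 0.0951).

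Several called genes act on chromatin or transcription. Kmt2d (chromosome 15, 98831669 to 98871204), a histone H3 lysine 4 methyltransferase, was at 2959, 2555, 2292 and 2504 CPM in WT cortex and 3415, 3654, 3893 and 3499 CPM in WT hippocampus. Its APP levels were 3259, 2984, 2655 and 2795 CPM in cortex and 1861, 1373, 1712 and 1974 CPM in hippocampus. The APP hippocampus values were again below all others, and the interaction was -1.24 ± 0.16 (adjusted p = 0.00038). Nsd3, a histone H3 lysine 36 methyltransferase, was called at -1.57 ± 0.34, though not with RLE size factors (adjusted p = 0.0639), whereas Crebbp, a histone acetyltransferase, was not called at -0.65 ± 0.24 (adjusted p = 0.218). Skil (chromosome 3, 31095058 to 31122577), which encodes SnoN, a repressor of SMAD proteins in TGF-beta signalling, went from 2210 ± 309 CPM in WT cortex to 3601 ± 797 CPM in WT hippocampus and from 2993 ± 313 to 1684 ± 188 CPM in APP mice. Its interaction was -1.53 ± 0.22 (adjusted p = 0.000873). Nfia, a nuclear factor I transcription factor, and Bhlhe41, a basic helix-loop-helix repressor, were called at -1.42 ± 0.22 and -1.11 ± 0.24. Without the second APP hippocampus replicate the adjusted p of Bhlhe41 was 0.0592.

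**Figure D1:**
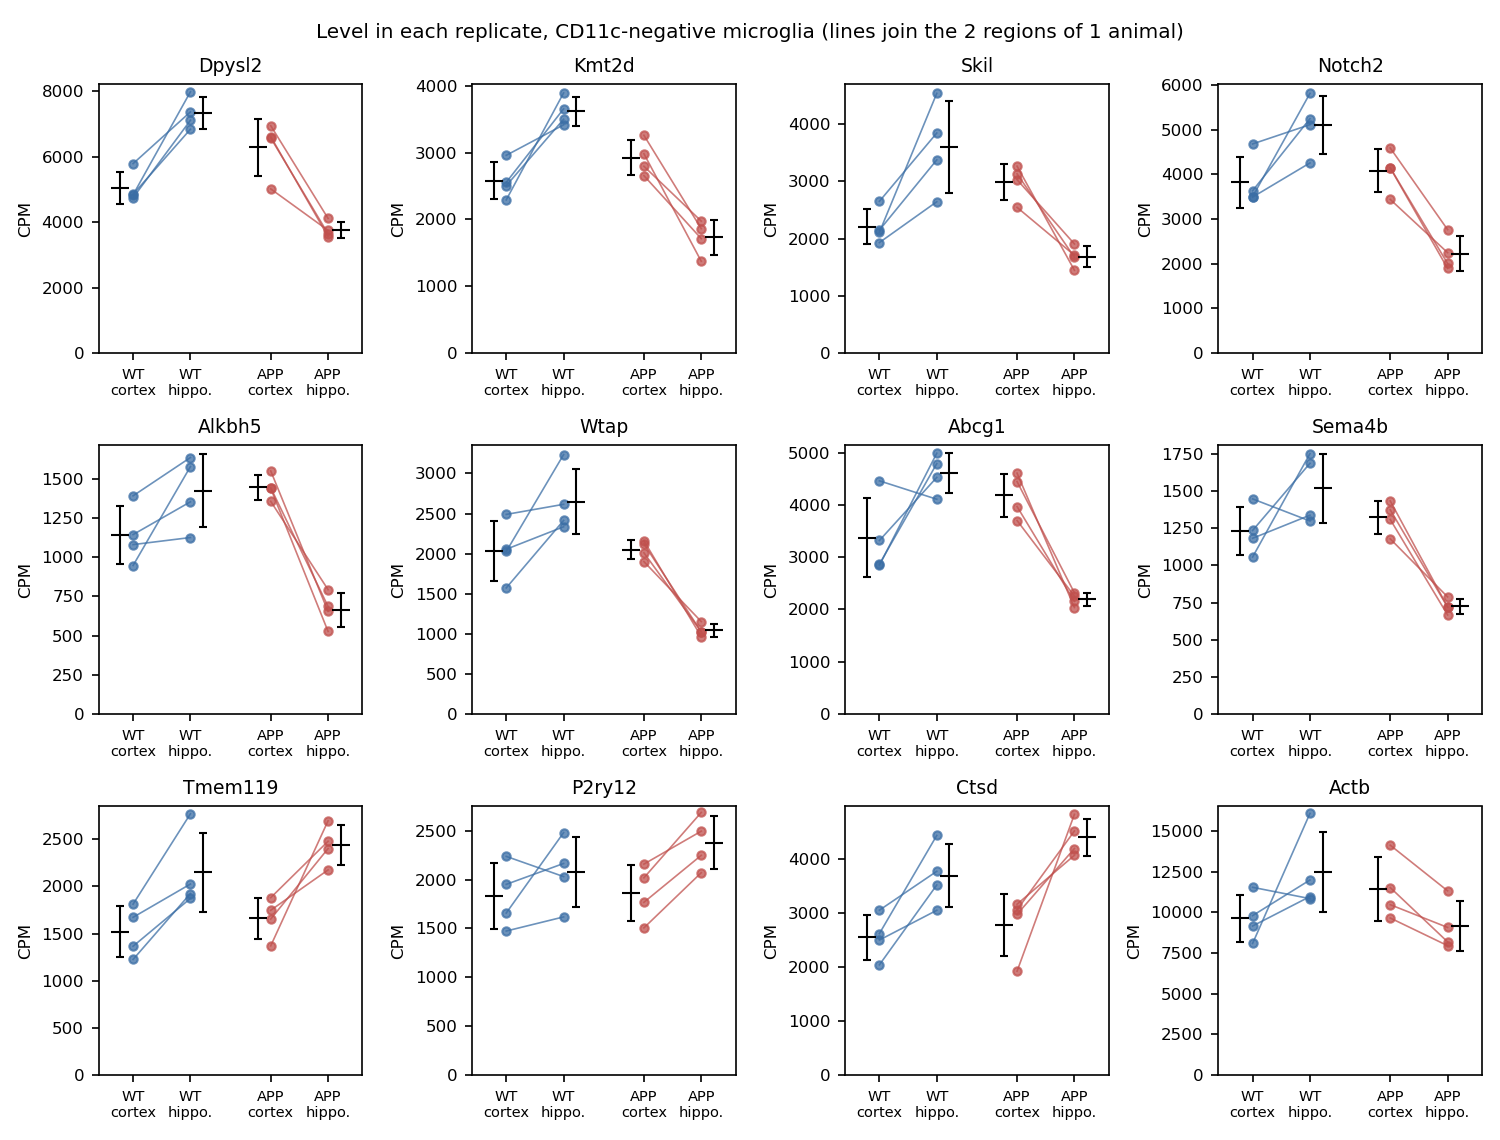
Level of 12 genes in CPM (y axis, linear from 0) for each of the 16 replicates, with a line joining cortex and hippocampus of 1 animal (blue WT, red APP) and the mean with SD bars beside each group of 4. The first 8 genes are called, with 4 descending APP lines each, and the last 4, Tmem119, P2ry12, Ctsd and Actb, are not called.

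Other called genes act on RNA. Alkbh5 (chromosome 11, 60536381 to 60558512), an eraser of the N6-methyladenosine mark on RNA, was at 1391, 1080, 947 and 1144 CPM in WT cortex and 1636, 1126, 1578 and 1353 CPM in WT hippocampus. The APP mice had 1550, 1443, 1439 and 1356 CPM in cortex and 655, 686, 527 and 793 CPM in hippocampus. All 4 APP hippocampus values were below every other value, and the interaction was -1.44 ± 0.22 (adjusted p = 0.00109). Wtap, a subunit of the complex that writes the same mark, was called at -1.36 ± 0.22, with 1042 ± 79.3 CPM in APP hippocampus against 2650 ± 407 CPM in WT hippocampus. Rbm15, another subunit of that complex, and Ythdf2, a reader of the mark that speeds RNA decay, were called at -1.96 ± 0.35 and -1.61 ± 0.30. Rbm15 and Ythdf2 were chosen after their values were seen, so the 4 genes do not stand for the pathway. Pan3, a subunit of a poly(A) nuclease, was called at -1.57 ± 0.24 and Marf1, an RNA-binding regulator of transcript stability, at -1.51 ± 0.22. Arglu1, a nuclear cofactor of transcription and splicing, was called at -1.10 ± 0.17.

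Called genes with roles in signalling included a receptor, a kinase and phosphatases. Notch2, a receptor of the Notch family, was at 4677, 3488, 3497 and 3630 CPM in WT cortex and 5108, 4252, 5808 and 5243 CPM in WT hippocampus. In APP mice it was at 4144, 4142, 3436 and 4587 CPM in cortex and 2003, 1893, 2245 and 2760 CPM in hippocampus. The APP hippocampus values did not overlap those of any other group, and the interaction was -1.29 ± 0.19 (adjusted p = 0.000873). Bmp2k, a kinase induced by bone morphogenetic protein 2, was called at -1.09 ± 0.17. Gnb1, a beta subunit of heterotrimeric G proteins, was called at -1.42 ± 0.22. Dusp3, a dual-specificity phosphatase of MAP kinases, Inpp4a, a phosphoinositide phosphatase, and Pitpnc1, a phosphatidylinositol transfer protein, had interactions of -1.45 ± 0.23, -1.64 ± 0.26 and -1.29 ± 0.21. Sema4b, a membrane semaphorin counted in the homeostatic list, was at 1230 ± 163 CPM in WT cortex, 1323 ± 109 in APP cortex, 1518 ± 234 in WT hippocampus and 723.5 ± 49.8 CPM in APP hippocampus. Its interaction was -1.17 ± 0.26 (adjusted p = 0.0175), and the adjusted p was 0.0599 with RLE size factors.

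Genes of the secretory route, of mitochondria and of lipid handling were also among the 119. Kdelr2, the receptor that returns proteins to the endoplasmic reticulum, was called at -1.28 ± 0.20, and B4galt1, a Golgi galactosyltransferase, at -1.45 ± 0.23. Yme1l1, a protease of the mitochondrial inner membrane, was called at -1.57 ± 0.23, with 914.6 ± 104 CPM in APP hippocampus against 2366 ± 337 in WT hippocampus. Mcmbp, which binds the replication helicase, was called at -1.76 ± 0.25. Adam10, the main alpha-secretase that cleaves the amyloid precursor protein and also sheds Notch receptors, was called at -1.21 ± 0.20. It was chosen after its values were seen, and its levels were 2398 ± 312 CPM in WT cortex, 3107 ± 218 in APP cortex, 3221 ± 317 in WT hippocampus and 1802 ± 242 CPM in APP hippocampus. Abcg1, a transporter that exports cholesterol, was at 4458, 2844, 3318 and 2865 CPM in WT cortex and 4107, 4987, 4524 and 4788 CPM in WT hippocampus. Its APP values were 3700, 4444, 3967 and 4606 CPM in cortex and 2254, 2317, 2152 and 2036 CPM in hippocampus, below all other replicates, with an interaction of -1.38 ± 0.22 (adjusted p = 0.00122). Insig1, a brake on sterol synthesis that was likewise chosen after its values were seen, was at 362, 658, 232 and 573 CPM in WT cortex and 530, 320.5, 668 and 517 CPM in WT hippocampus. In APP mice it was at 490, 387, 328 and 543 CPM in cortex but 149, 113, 98.4 and 76.9 CPM in hippocampus, and the interaction was -2.15 ± 0.40 (adjusted p = 0.00469). With the animal as a block the adjusted p of Insig1 was 0.108.

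Genes that identify microglia, or that microglia make in large amounts, are given next. Tmem119 was at 1672, 1366, 1812 and 1225 CPM in WT cortex and 2025, 1873, 2770 and 1924 CPM in WT hippocampus. In APP mice it was at 1747, 1880, 1654 and 1370 CPM in cortex and 2175, 2479, 2401 and 2696 CPM in hippocampus. It was higher in hippocampus in all 8 animals, by ranges that overlapped between the genotypes, and its interaction was 0.05 ± 0.20 (adjusted p = 1). P2ry12, the purinergic receptor that steers processes toward injury, had an interaction of 0.17 ± 0.22, and Cx3cr1, the fractalkine receptor, of 0.47 ± 0.24 (adjusted p = 0.435). The complement genes C1qb and C1qc had 0.09 ± 0.26 and -0.24 ± 0.17. Among lysosomal proteases Ctsd, Ctsb, Ctss and Lgmn had 0.13 ± 0.20, 0.04 ± 0.24, -0.05 ± 0.18 and -0.21 ± 0.22. Cst3, which encodes the protease inhibitor cystatin C, Selplg, a selectin ligand, and B2m, the light chain of MHC class I, had -0.27 ± 0.11, -0.17 ± 0.15 and -0.09 ± 0.21. None of these 12 genes was called, and the sign of several turned with the scaling. Selplg was at 0.03 with RLE size factors and 0.17 with library totals only, B2m at 0.10 and 0.24, and Ctss at 0.13 and 0.28. Tmem119 stayed above 0, at 0.26 and 0.40. P2ry12 moved to 0.35 and 0.50, Cx3cr1 to 0.67 and 0.81, Ctsd to 0.34 and 0.47, and C1qb to 0.29 and 0.43. None of these was called in either setting.

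The calls below 0 were concentrated among genes with many counts. CPM is not scaled to gene length, so this orders genes by the counts available to the test and not by the number of transcripts. Of 135 genes with a mean of 1000 CPM or more, 78 were called below 0 (57.8%) and 1 above, and their median interaction was -1.10. Of 193 genes at 500 to 1000 CPM, 22 were called below 0 (11.4%). Of the 3072 genes at 50 to 500 CPM, 14 were called below and 3 above 0, and at 5 to 50 CPM the counts were 5 and 27 of 7784. The 135 genes were then set apart by 4 gene lists, homeostatic microglia, disease-associated microglia, lysosome, and complement and Fc receptors, a choice made after the values were seen. Of the 23 genes in these lists, 2 were called, Gm2a and Sema4b, and the median was -0.05. Of the other 112 genes, 76 were called below 0, 106 had a negative value, and the median was -1.16. Gm2a, the activator protein for ganglioside breakdown in lysosomes, was at 1299 ± 165 CPM in APP hippocampus and 2964 ± 439 CPM in WT hippocampus, with an interaction of -1.39 ± 0.24 (adjusted p = 0.00202).

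**Figure D2:**
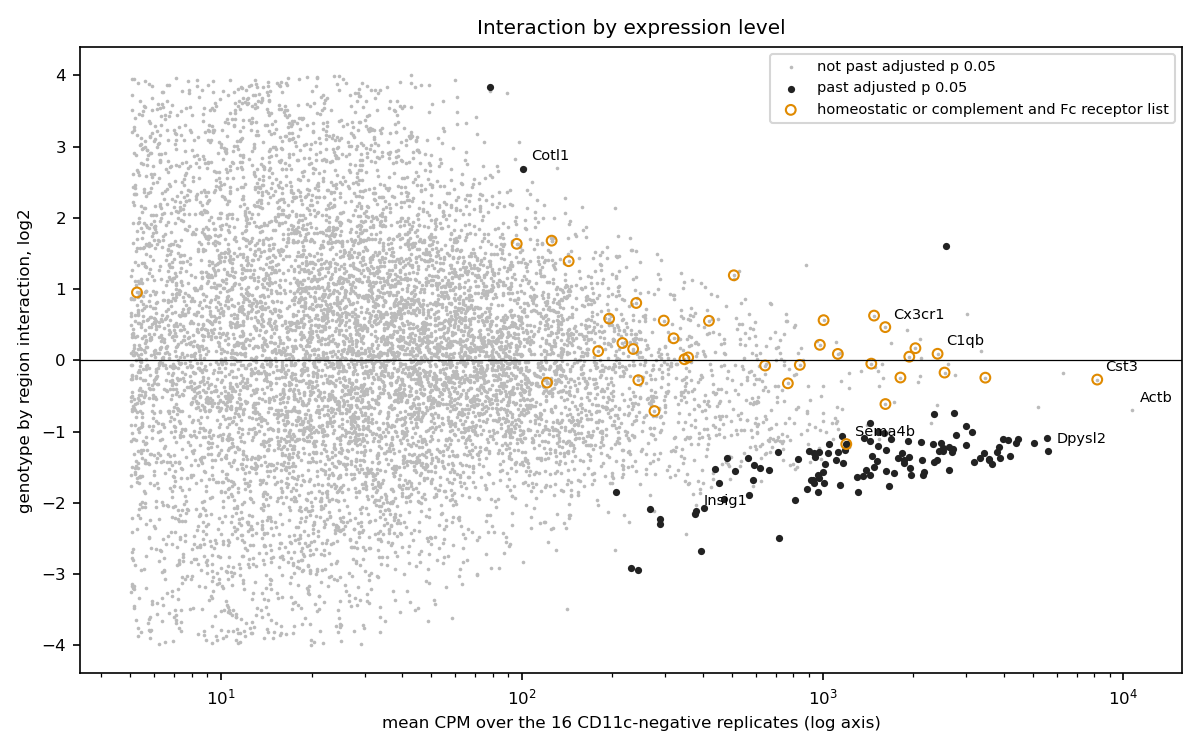
Interaction in log2 units (y axis) against the mean CPM over the 16 replicates (x axis, log scale) for genes at 5 CPM or more; values beyond 4 in size are not drawn. Called genes (black) lie below 0 toward the right, 78 of the 135 genes at 1000 CPM or more, while the genes of the homeostatic and the complement and Fc receptor lists (orange rings) lie around 0, Sema4b excepted.

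Called genes of this class had larger median lengths, given as a description. The 78 called genes at 1000 CPM or more had a median exonic length of 6135 bases and a median span of 35.9 kb in GENCODE vM21. The 57 others at that level had 3388 bases and 16.7 kb, and all tested genes had 3876 bases and 17.9 kb. The quartiles of exonic length were 4084 and 10285 bases for the called genes and 1906 and 5774 bases for the others, so the ranges overlapped. Together the 119 genes took 17.5 to 20.9% of the raw counts in WT cortex replicates and 19.7 to 22.9% in APP cortex. They took 24.5 to 25.9% in WT hippocampus and 13.3 to 15.8% in APP hippocampus. This share needs no scaling between libraries, and it is given as a description because the genes were chosen by the same values.

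The share of cells with a count gave a second view of the same genes. It was computed for each cell at a depth of 5000 counts, which left out 6 WT cortex, 14 APP cortex, 11 WT hippocampus and 17 APP hippocampus cells that were shallower. For Cx3cr1 this share was 72.4, 70.8, 61.8 and 56.8% in WT cortex and 49.0, 49.2, 59.0 and 52.3% in WT hippocampus. In APP mice it was 49.3, 53.6, 67.0 and 55.8% in cortex and 81.6, 80.2, 93.2 and 85.9% in hippocampus, above every other replicate. The genotype difference was 41.9 percentage points larger in hippocampus than in cortex (two-sided exact permutation test of the 4 APP against the 4 WT animal differences, p = 0.0286, the smallest this design allows). At full depth 62.8% of WT hippocampus and 92.7% of APP hippocampus cells had a count of Cx3cr1. The same measure was 34.9 points for Tmem119 and 33.7 points for P2ry12, with the same p. The share was computed for all 14892 genes, of which 8.76% had all 4 APP differences above all 4 WT differences, and these p-values were not adjusted over them.

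Most called genes with many counts had a value below 0 by this measure. Alkbh5 was found in 43.4, 42.2, 46.2 and 53.5% of APP hippocampus cells against 64.7, 46.6, 64.9 and 55.2% of WT hippocampus cells, an interaction of -17.8 points (exact permutation p = 0.0286). Dpysl2 was found in 95.6 to 100% of cells in every replicate. Of the 78 called genes at 1000 CPM or more, 65 had a negative and 13 a positive difference, with a median of -5.60 points. Their APP differences lay all below those of WT in 4 genes, which happened in 0.349% of all genes tested, and all above in 0. Of the 23 genes of the 4 microglial and lysosomal lists at that level, 21 had a positive difference, 14 lay all above, and the median was 22.7 points. A rise was not particular to these lists. Of the 36 genes at that level that were neither listed nor called below 0, 31 had a positive difference. Of these 36, 12 lay all above (33.3%), with a median of 7.37 points, beside 26 of all 135 genes at that level (19.3%). More genes were detected per cell in APP hippocampus at the same depth, which moves all such shares, and its part in these differences was not tested.

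Those replicate measures moved with the interaction and are given here as they touch each count above. At 5000 counts per cell the median number of genes was 497 to 590 in WT cortex, 421 to 597 in APP cortex, 377 to 454 in WT hippocampus and 544 to 634 in APP hippocampus. Every WT mouse had fewer genes per cell in hippocampus than in cortex, and every APP mouse had more. The 100 genes with most counts took 23.1 to 27.3% of the counts in WT cortex and 24.96 to 27.7% in APP cortex. They took 29.1 to 31.2% in WT hippocampus and 22.4 to 26.0% in APP hippocampus. The summed level of 12 microglia markers was 11988 to 17256, 12750 to 15755, 16082 to 17900 and 21446 to 25416 CPM of the raw total in the same order of groups. For each of these 3 measures, and for oligodendrocyte lineage markers at 888 to 1324, 949.5 to 1133, 476 to 928 and 797 to 945 CPM, the animal differences did not overlap between genotypes (exact permutation p = 0.0286, adjusted p = 0.114 over 16 measures). The mitochondrial share was 0.943 to 1.98% in WT cortex, 0.903 to 1.74% in APP cortex, 0.590 to 0.722% in WT hippocampus and 1.10 to 1.20% in APP hippocampus (exact permutation p = 0.286). When genes per cell entered the fit as a covariate, 43 genes were called, 42 below and 1 above 0, and the 42 were all among the 119. The 119 then had a median of -1.12.

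**Figure D3:**
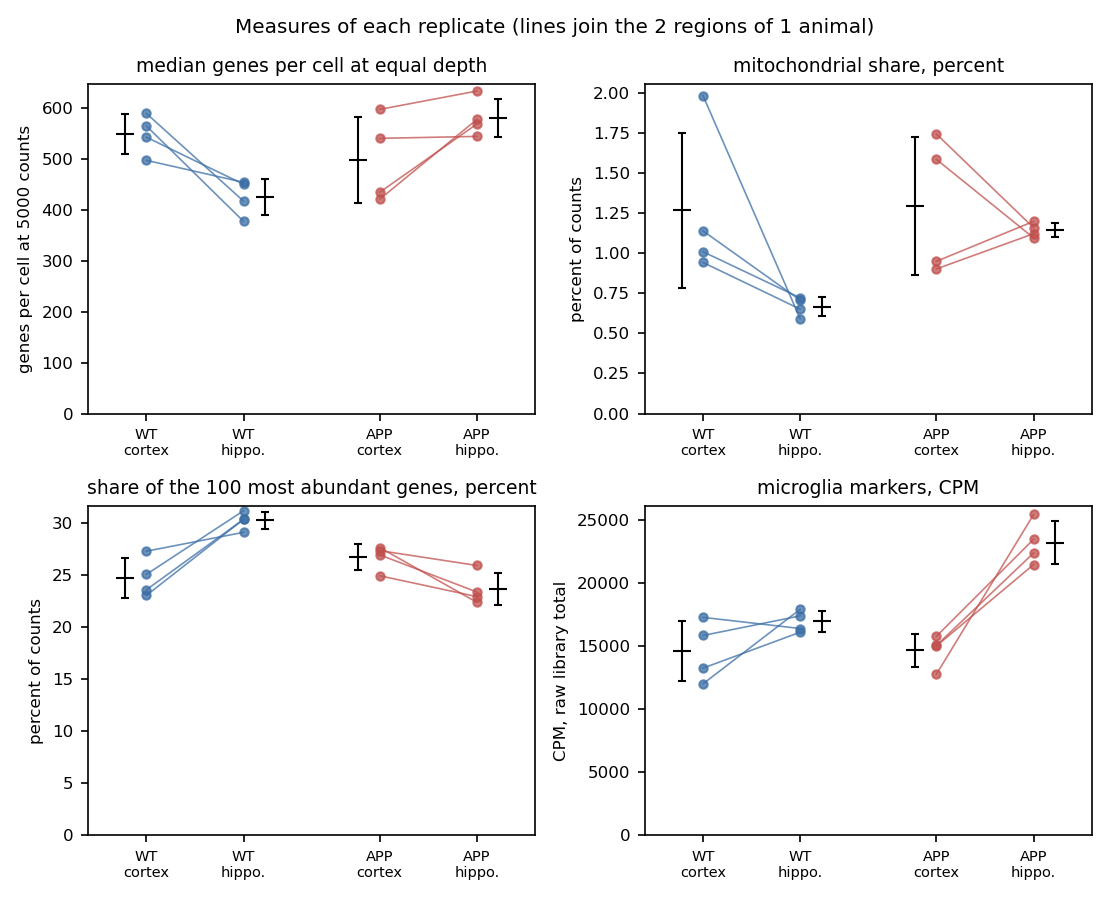
Genes per cell at 5000 counts, percent of counts from mitochondrial genes, percent of counts in the 100 genes with most counts, and summed CPM of microglia markers (y axes, linear from 0) for each of the 16 replicates, with lines joining the regions of 1 animal and mean with SD beside each group. Genes per cell descend from cortex to hippocampus in all 4 WT mice and ascend in all 4 APP mice.

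Within regions, the genotype difference was called in hippocampus and not in cortex. In hippocampus 226 genes were called (1.52%), 49 higher in APP (0.329%) and 177 lower (1.19%). In cortex edgeR called 0 genes (0%), with 1354 genes at an unadjusted p under 0.05, whereas limma voom called 19 and DESeq2 245. Of the 119 interaction genes all were lower in APP hippocampus, 112 of them called there, with a median of -1.16. In cortex 117 of them had a value above 0, with a median of 0.27 and 0 called. Read by region, the median hippocampus minus cortex difference of the 119 was 0.53 in WT and -0.89 in APP mice. Set against cortex of the same mice, the median of these genes was higher in hippocampus in WT and lower in hippocampus in APP mice. Dpysl2 had a genotype difference of 0.31 ± 0.11 in cortex (adjusted p = 0.519) and fell by 0.96 ± 0.11 in hippocampus (adjusted p = 2.19e-05). Wtap had 0.01 ± 0.15 in cortex and fell by 1.35 ± 0.16 in hippocampus (adjusted p = 2.2e-05).

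**Figure D4:**
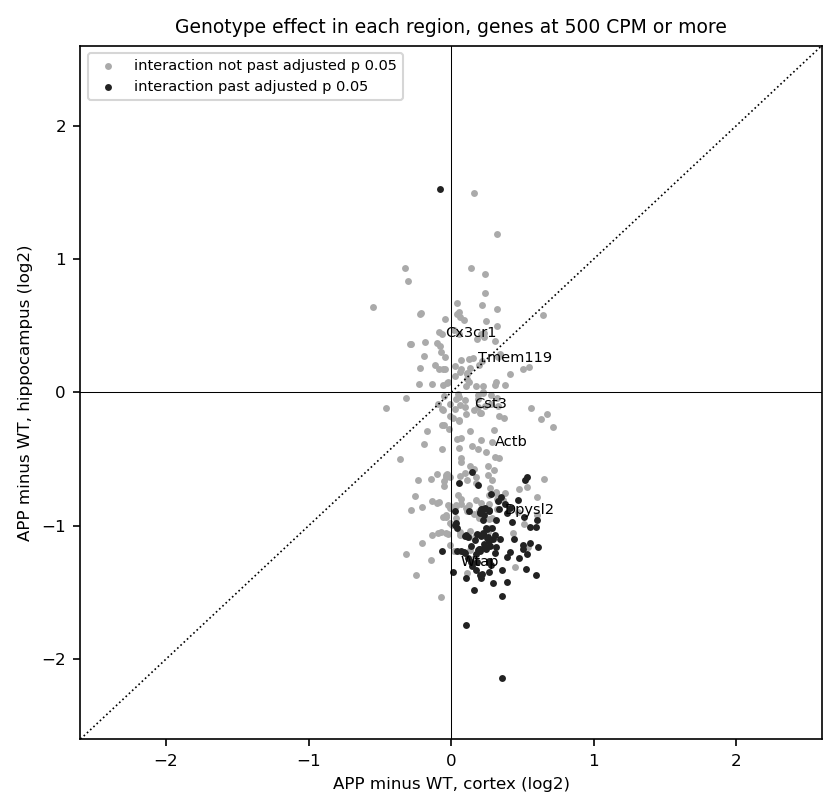
APP minus WT log2 difference in hippocampus (y axis) against cortex (x axis) for genes with a mean of 500 CPM or more, with genes called in the interaction in black and a dotted line of equal differences. Most black points lie near -1 in hippocampus and slightly right of 0 in cortex, while Tmem119, Cst3 and Cx3cr1 lie at 0.18, -0.17 and 0.37 in hippocampus.

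The 31 genes above 0 were mostly genes with few counts. Of these, 27 had a mean under 50 CPM and 23 had at most 3 counts over the whole of WT hippocampus, so no fold is given for such genes. Elf2, an ETS family transcription factor, had the smallest p among them (adjusted p = 0.000873). It was at 69.6, 17.0, 25.6 and 42.0 CPM in WT cortex, 16.7, 98.5, 23.5 and 9.17 CPM in APP cortex and 116, 72.2, 113 and 128 CPM in APP hippocampus, while WT hippocampus held 1 count in all. A count of Elf2 was found in 17 WT cortex, 19 APP cortex, 1 WT hippocampus and 46 APP hippocampus cells. Cotl1, which binds actin filaments and was chosen after its values were seen, was called with an interaction of 2.69 ± 0.65 (adjusted p = 0.0409). Its levels were 102 ± 40.9, 60.6 ± 28.3, 49.8 ± 28.4 and 192 ± 70.3 CPM in WT cortex, APP cortex, WT hippocampus and APP hippocampus, and it was called in 4 of the 16 fits that left out 1 replicate. With the animal as a block its adjusted p was 0.536, and with the 4 groups alone 0.169. With the 4 CD11c-negative groups alone 7 of the 31 were called, and with the animal as a block 2.

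Pathway lists had few called members, to be read beside the 1.01% of all genes tested that were called, 0.799% below and 0.208% above 0. That share depends on level: 57.8% of genes at 1000 CPM or more were called below 0, against 0.0642% at 5 to 50 CPM. The lists were not matched to it by level. Of 24 homeostatic genes 1 was called, Sema4b, and the list's median interaction was 0.07 beside 0.18 for all genes tested. Of 29 disease-associated genes the 1 called was Lpl, lipoprotein lipase. It was at 0 counts in WT cortex and at 97.5, 102, 19.9 and 18.3 CPM in APP cortex, against 2.82, 0, 72.5 and 0.512 CPM in WT hippocampus and 1.07, 3.31, 14.5 and 0.818 CPM in APP hippocampus (adjusted p = 0.00549). The WT hippocampus level rested on animal 3. Lpl was not called with the animal as a block (adjusted p = 0.408) or with the 4 CD11c-negative groups alone (adjusted p = 0.0832). Apoe, an apolipoprotein of the same list, was at 361 ± 176, 408 ± 227, 366.5 ± 300 and 274 ± 158 CPM and was not called. Of 20 interferon genes the 1 called was Ifi27l2a, at 0 counts in APP hippocampus and 1 count in WT cortex, with 195 counts in APP cortex in 6 cells and 114 in WT hippocampus in 2 cells (adjusted p = 0.0133, and 0.149 without WT hippocampus replicate 3). Of 15 cytokine and chemokine genes the 1 called was Ccl2, a monocyte chemoattractant, at 0 counts in APP hippocampus and 748 counts in APP cortex in 16 cells (adjusted p = 0.0376). These levels rest on few cells, and the animal differences of Ccl2 overlapped between genotypes. Ccl2 was called in 6 of the 16 fits that left out 1 replicate, and its adjusted p was 0.170 with the animal as a block and 0.0889 with the 4 groups alone.

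Of 24 cholesterol and lipid handling genes 3 were called below 0, Abcg1, Insig1 and Lpl, beside 0.799% of all genes tested, and the median was -1.03. Abcg1 is among the genes at 1000 CPM or more, of which 57.8% were called below 0. The 3 calls are therefore not read as a property of the list. With the animal as a block Abcg1 was called (adjusted p = 0.00302) and Insig1 and Lpl were not. The summed level of this list was 5214 to 6068 CPM of the raw total in WT cortex, 5742 to 6757 in APP cortex, 5347 to 7686 in WT hippocampus and 3742 to 4228 CPM in APP hippocampus, where it did not overlap the other groups. Abcg1 alone averaged 4601 CPM in WT hippocampus and 2190 CPM in APP hippocampus after TMM scaling, so it weighs heavily on this sum. Whether the list fell without Abcg1 was not tested. Of 40 chromatin regulators 2 were called, Kmt2d and Nsd3, with a median of -0.25 and a summed level of 8543 to 9441 CPM in APP hippocampus against 9972 to 11928 CPM in the other groups. The 2 called genes weigh heavily on this sum. After TMM scaling Kmt2d averaged 3615 CPM in WT hippocampus and 1730 CPM in APP hippocampus, and Nsd3 1519 and 592 CPM. Whether the other members fell as a set was not tested. Of 19 genes in the TGF-beta list 2 were called, with a median of 0.20. These were Skil, a repressor in that pathway, and Bmp2k, listed there but described above only as induced by bone morphogenetic protein 2. Of 33 transcription factors known in microglia 1 was called, Bhlhe41, with a median of 0.24. Of 42 actin and motility genes Actr2 was called below and Cotl1 above 0, with a median of 0.22. The 33 lysosomal genes held 1 call, Gm2a, with a median of 0.13, and their summed level was 29999.9 to 33308 CPM in APP hippocampus against 17209 to 26324 CPM in the other groups. Sums of the homeostatic, disease-associated, and complement and Fc receptor lists were also higher there without overlap. They were 35621 to 37460, 17688 to 21047 and 11740 to 14871 CPM, against at most 33029, 17518 and 10802 CPM in the other groups. The 19 glycolysis and hypoxia genes held 1 call above 0, the glucose transporter Slc2a1 (median 0.37, adjusted p = 0.0185). Slc2a1 was at 0 counts in APP cortex and 3 counts in WT hippocampus, with 204 and 186 counts in WT cortex and APP hippocampus in 4 and 6 cells. Without APP cortex replicate 2 its adjusted p was 0.0523, with the animal as a block 0.514 and with the 4 groups alone 0.110. No call fell among 14 genes of MHC class I, 12 of complement and Fc receptors, 9 of MHC class II, 32 of oxidative phosphorylation and 22 of the immediate early and stress response, with medians of 0.98, 0.42, -1.68, 0.21 and 0.30. The summed MHC levels overlapped between the genotypes in both regions. Class I means were 3755, 3557, 3347 and 3656 CPM in WT cortex, APP cortex, WT hippocampus and APP hippocampus. Class II means were 2649, 3246, 3009 and 3847 CPM, so the 2 medians do not describe the sums. None of the tested markers of other cell types was called.

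**Figure D5:**
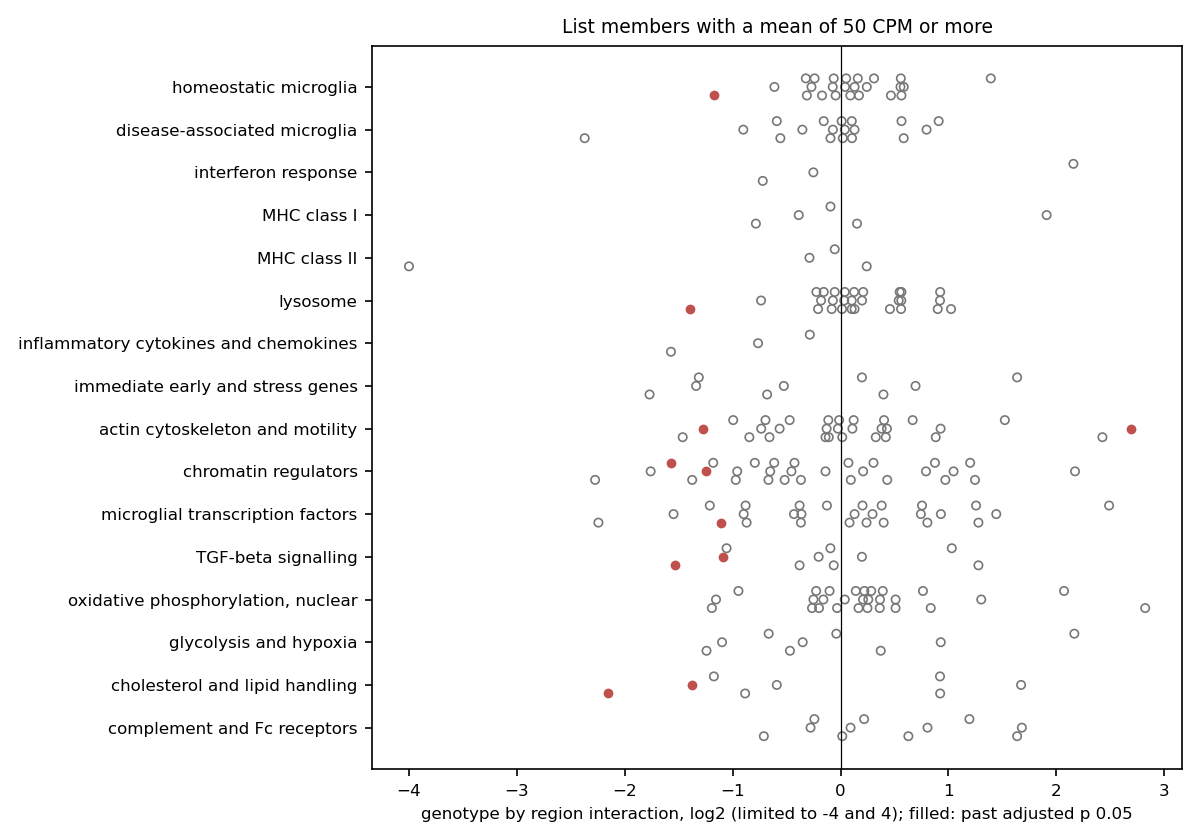
Interaction in log2 units (x axis) of each list member with a mean of 50 CPM or more, by list (rows), with called genes filled in red; 1 MHC class II gene beyond -4 is drawn at -4. The homeostatic and lysosome lists hold 1 called gene each among members that lie mostly within 1 of 0, and the called genes drawn for the chromatin, TGF-beta and lipid lists lie between -2.15 (Insig1) and -1.09 (Bmp2k).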

How the data were processed

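The deposited files hold raw counts per gene and cell barcode, 1 file per library; per the submitters' processing notes, reads were handled with UMI-tools 0.5.3, HISAT2 2.1.0 and featureCounts 1.6.0 on GRCm38 (mm10). The sources used here do not say whether reads with the same molecular identifier were merged; 35.9% of entries above 0 were 20 or more, so counts may be reads. A barcode needed 200 genes and no more than 20% mitochondrial counts (2 of 1710 were removed), doublets were not called, and the libraries of an animal were added up within region and gate. edgeR 4.0.16 (R 4.3.3, limma 3.58.1) fitted 1 mean per group over all 6 sorted groups (23 replicates, 17 residual degrees of freedom) after TMM scaling and filterByExpr. The common biological coefficient of variation came to 1.37. The further groups held CD11c-positive cells of APP mice. Some of their hippocampus replicates were pools that shared a mouse by name. Animals also recur across groups, yet this fit treated the 23 replicates as independent. With the 4 CD11c-negative groups alone the interaction called 113 of 11367 genes, 7 above and 106 below 0. The scripts were tested on simulated data. DESeq2 1.42.0, limma voom and other settings were alternatives. Cortex and hippocampus of the same title name share an animal, so the animal pairs them; the correlation of their deviations from the group means over 3400 genes was -0.0515 to 0.0435. Permutation tests compared 4 with 4 animal differences, two-sided, where the smallest possible p is 0.0286.

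The members, gene lists and alternatives were chosen with earlier results of these data known. The genes named are the 20 interaction genes with the smallest p, the 24 smallest with at least 50 CPM in a group (without predicted, mitochondrial and ribosomal protein genes), the 2 highest and 1 smallest-p member of each list, and Itgax, Apoe, Tmem119, P2ry12, Cx3cr1, Sema4b, App and Prnp; a part of them is left out. Insig1, Adam10, Rbm15, Ythdf2, Cotl1 and Nsd3 were added after their values were seen.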

Additional observations from a re-analysis of the deposited data

Results flagged for a closer look

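Genes whose genotype difference was tested as unequal between the regions are given first, with their interaction in log2 units. Values between -2.15 and -1.5 belonged to Insig1 (-2.15), Rbm15 (-1.96), Mcmbp (-1.76), Inpp4a (-1.64), Ythdf2 (-1.61), Yme1l1 (-1.57), Nsd3 (-1.57), Pan3 (-1.57), Skil (-1.53) and Marf1 (-1.51). Values from -1.45 to -1.3 belonged to B4galt1 (-1.45), Dusp3 (-1.45), Alkbh5 (-1.44), Gnb1 (-1.42), Nfia (-1.42), Gm2a (-1.39), Abcg1 (-1.38), Tacc1 (-1.37) and Wtap (-1.36). Smaller ones belonged to Pitpnc1 (-1.29), Notch2 (-1.29), Kdelr2 (-1.28), Dpysl2 (-1.27), Actr2 (-1.27), Kmt2d (-1.24), Adam10 (-1.21), Tubb5 (-1.18), Sema4b (-1.17), Bhlhe41 (-1.11), Arglu1 (-1.10) and Bmp2k (-1.09), and Cotl1 was at 2.69. Elf2, Lpl, Ifi27l2a, Slc2a1 and Ccl2, each with a group at 3 counts or fewer, had adjusted p values of 0.000873, 0.00549, 0.0133, 0.0185 and 0.0376 by edgeR's quasi-likelihood test.

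In 25 of 256 groups of 4 replicates, 1 replicate stood apart from the other 3 (Dixon's test, 9.77%). Chance gives about 1 in 20 only for normally distributed values. A group with 3 replicates at 0 and 1 above 0 is always flagged. This applies to Ccl2 and Ifi27l2a in WT cortex and to Elf2, Itgax and Prnp in WT hippocampus. In WT cortex the flagged replicates were replicate 1 for Dpysl2 (5786 CPM), Notch2 (4677 CPM), C1qc (3842 CPM), Ccl2 (5.31 CPM) and its number of cells (155), and replicate 2 for Yme1l1 (1357 CPM) and Ifi27l2a (0.436 CPM). The number of cells in WT cortex came from 2 libraries in replicate 1 and 1 library in each other replicate. In APP cortex the flagged replicates were replicate 2 for Elf2 (98.5 CPM), Pan3 (2944 CPM) and C1qb (3015 CPM), and replicate 4 for Ctsd (1923 CPM), Ctss (3305 CPM), Cx3cr1 (1065 CPM) and App (332 CPM). In WT hippocampus they were replicate 1 for Elf2 (0.282 CPM), Itgax (3.66 CPM) and Prnp (1.69 CPM), replicate 3 for Lpl (72.5 CPM), Ifi27l2a (51.9 CPM) and Tmem119 (2770 CPM), and replicate 4 for Bhlhe41 (3677 CPM). In APP hippocampus they were replicate 2 for Itgax (31.8 CPM) and replicate 4 for Bmp2k (4586 CPM), Ctss (3096 CPM) and the summed astrocyte markers (175 CPM).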

How the results depend on the processing

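The interaction called 150 genes as reported, 798 with DESeq2, 233 with limma voom, 275 when cells with at least 5 counts were counted, 90 with the animal as replicate block, 43 with genes per cell as covariate and 118 to 174 when 1 replicate was left out. With the genotype tag in place of the title 0 genes were called (1556 at an unadjusted p under 0.05 by edgeR), the adjusted p of Slc2a1 was 1 and its sign turned, and Pitpnc1 and Bhlhe41 turned to 0.0575 and 0.0559; the cause was not tested. The hippocampal genotype difference called 226 genes as reported, 1072 with DESeq2, 413 with voom, 446 by cells, 109 with the covariate, 0 with the tag and 169 to 259 without 1 replicate. The cortical count of 0 became 245 with DESeq2, 19 with voom, 1 with no gene filter, 4 with the mean over cells and 0 to 1 without 1 replicate. Calls above and below 0 were 475 and 323 with DESeq2, 32 and 89 with RLE size factors, and 33 and 76 with library totals only, a setting added after seeing the data; the median of all genes moved to 0.39, 0.38 and 0.50. The 119 genes called below 0 kept their sign wherever tested, 98 of 119 with the tag, and their median was -1.06 with library totals only. Of the 37 called genes named, 35 were still called with RLE, 34 without the cells rich in neural markers, and 25 with the covariate. The spread between replicates at low counts limits genes under 50 CPM.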
